A study of Caenorhabditis elegans with 2 samples.

Results

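The 10 genes described here encode the major cytosolic and mitochondrial chaperones of C. elegans and their heat shock transcription factor, namely hsp-1, hsp-70, hsp-90, hsp-110, hsp-6, hsp-60, dnj-12, dnj-13, dnj-19 and hsf-1. They were chosen by name from the 19985 protein-coding genes of the Ensembl WBcel235 annotation, and all 10 were found there. Binding of LET-607, a transcription factor of the CREB3 family of membrane-anchored bZIP proteins, was measured at them by chromatin immunoprecipitation and sequencing (ChIP-seq). There was 1 group of 2 biological replicates, each of whole young adult hermaphrodites of strain YL529 collected 67 h after synchronization as starved L1 larvae. The animals came from 1 transgenic line in which LET-607 carries GFP and FLAG at its C-terminus, and an antibody against GFP was used. The labels name no heat treatment and no promoter for the transgene. Whole animals were used, so the tissue in which a site was bound is unknown, and there is no second condition to compare.

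Hsp70 proteins such as HSP-1 bind unfolded stretches of other proteins and release them in cycles of ATP hydrolysis. J-domain proteins (DNJ) deliver clients and start that cycle, Hsp110 proteins exchange the nucleotide that ends it, and Hsp90 acts later on proteins that are close to their final fold. In mitochondria, HSP-6 (mitochondrial Hsp70) pulls in and folds imported proteins, and HSP-60 forms a closed folding chamber. HSF-1 activates many of these genes when unfolded protein accumulates, through repeats of the heat shock element in their promoters. CREB3 factors are better known for genes of the endoplasmic reticulum (ER), where other chaperones serve.

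Reproducible LET-607 peaks lay at the 5′ ends of 7 of the 10 genes, at ranks from 200 at hsp-110 to 1619 at hsp-6. The median rank over all 1550 bound genes was 1076.5, and of the 7 only hsp-6 had a weaker rank than that. A gene was counted as bound when a summit of the authors' reproducible peak list (thresholded on the irreproducible discovery rate, IDR) lay in its promoter window, which runs from 1000 bp upstream of the annotated 5′ end to 200 bp downstream. By this rule hsp-1, hsp-110, hsp-6, hsp-60, dnj-12, dnj-13 and dnj-19 were bound, against 7.76% of all protein-coding genes, and hsp-70, hsp-90 and hsf-1 were not. The IDR list holds 2372 peaks and is the top of the pooled list of 26789 peaks, so 1 rank serves for both. Of the members, 5 had a promoter peak among the first 500 ranks, as had 1.98% of all genes. The median pooled rank over all 10 members was 510.5. Of all protein-coding genes, 12703 had no pooled summit in the window, and the median rank of the other 7282 was 7877.5. The genes were chosen with earlier results of these data known, so no test of the list is given.

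When each summit was given only to its nearest 5′ end, 3 members remained bound, hsp-1, dnj-12 and dnj-13, against 5.95% of all protein-coding genes under the same rule. The summits of hsp-110, hsp-6, hsp-60 and dnj-19 then went to neighbouring genes. With the 5′ ends of all annotated transcripts in use, 8 members were bound, hsp-90 being added, against 8.47% of all genes.

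The longer relaxed lists reached every member. All 10 had a pooled relaxed summit in the window, against 36.4% of all protein-coding genes. Replicate 1 had a relaxed summit at all 10 (background 35.8%) and replicate 2 at 8 (background 32.8%). The same 8 had one in both replicates, against 23.0% of all genes, and at each of them the replicate summits lay within 100 bp of each other, against 16.3%. The members without a summit of replicate 2 were hsp-90 and hsf-1. No read counts were analysed here, so depth is unknown. Peak signal comes from the authors, who give it no scale, so it is read below only within its own list and with its rank.

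**Figure D1:**
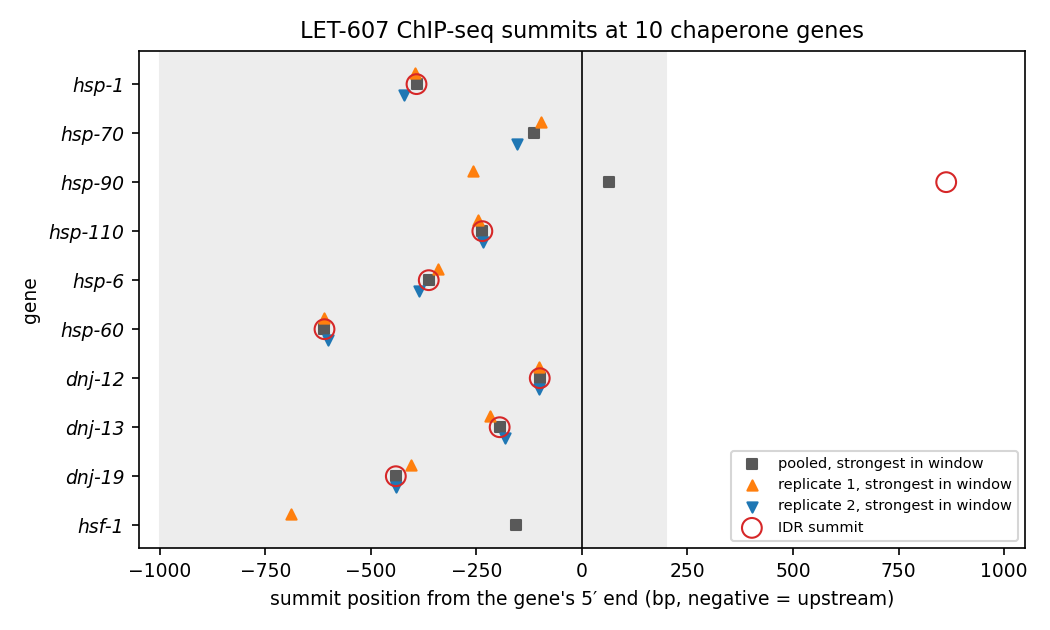
Positions of peak summits at the 10 genes. The x axis is the distance from the gene's 5′ end in bp, negative upstream; the grey band is the promoter window. Squares, upward and downward triangles mark the strongest window summit of the pooled list, replicate 1 and replicate 2, and red circles mark IDR summits within 1000 bp. At the 7 bound genes the 3 lists lie close together between 610 and 100 bp upstream, and the IDR summit of hsp-90 lies 863 bp downstream.

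The sequences at the summits of 6 of the 7 bound members and of hsp-90 are shown for the motif letters they hold; that of dnj-12 is described but not printed. They were read 5′ to 3′ on the strand of the chaperone gene from the RefSeq WBcel235 sequence, which has ce11 coordinates. Each covers 50 bp to each side of the IDR summit, or 100 bp where no heat shock element letters were found within 50 bp. The sequence of dnj-19 covers 25 bp in all, because the summit lay in an annotated untranslated exon of a neighbour. Capitals mark heat shock element letters, GAANNTTC or TTCNNGAA, and at dnj-19 the bZIP core GACGTG on the opposite strand.
hsp-1 (chrIV:17278517-17278617, plus strand): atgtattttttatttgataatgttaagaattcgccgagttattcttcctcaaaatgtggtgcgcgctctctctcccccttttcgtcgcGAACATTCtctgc
hsp-110 (chrIII:8447095-8447195, minus strand): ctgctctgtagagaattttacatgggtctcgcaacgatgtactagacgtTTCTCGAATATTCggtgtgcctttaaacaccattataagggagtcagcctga
hsp-90, first intron (chrV:14685731-14685831, plus strand): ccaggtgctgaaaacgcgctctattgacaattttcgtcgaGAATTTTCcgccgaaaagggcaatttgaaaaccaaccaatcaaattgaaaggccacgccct
hsp-6 (chrV:4827023-4827223, minus strand): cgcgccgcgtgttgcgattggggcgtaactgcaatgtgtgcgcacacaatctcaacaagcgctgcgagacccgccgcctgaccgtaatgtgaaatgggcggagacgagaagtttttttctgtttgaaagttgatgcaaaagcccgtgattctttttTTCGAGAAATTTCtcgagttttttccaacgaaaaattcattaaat
hsp-60 (chrIII:1619032-1619232, plus strand): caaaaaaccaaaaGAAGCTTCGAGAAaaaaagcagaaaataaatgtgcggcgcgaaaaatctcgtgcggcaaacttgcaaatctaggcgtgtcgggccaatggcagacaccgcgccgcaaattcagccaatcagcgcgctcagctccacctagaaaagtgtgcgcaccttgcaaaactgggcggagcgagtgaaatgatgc
dnj-13 (chrII:11545456-11545556, plus strand): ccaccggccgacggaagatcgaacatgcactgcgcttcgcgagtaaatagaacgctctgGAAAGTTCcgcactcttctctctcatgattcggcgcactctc
dnj-19 (chrV:5505286-5505310, minus strand): tgttgtCACGTCttcagtctctctg

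Heat shock element letters lay near most of the bound members' summits, at distances that varied from gene to gene. The element is built of inverted repeats of the unit GAA, and a pair of units reads GAANNTTC or TTCNNGAA, each of which is its own reverse complement, so that a match counts on both strands. Overlapping pairs make longer runs of units. Within 50 bp of the summit a pair was found at hsp-1, hsp-110 and dnj-13, 3 of the 7 bound members, against 7.21% of all IDR summits and 6.7% of the 1238 that had a gene in reach. Within 100 bp, 6 of the 7 had one, against 16.9% of all IDR summits and 17.4% of those with a gene in reach. The exception was dnj-19. At dnj-13 the pair began 9 bp from the summit and at hsp-1 38 bp from it. At hsp-110 a run of 3 units covered the summit itself.

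Runs of 3 units, a form looked at after the pairs had been seen, lay within 100 bp at hsp-110, hsp-6, hsp-60 and dnj-12, 4 of the 7. Of all IDR summits 1.9% had such a run in that distance, and of those with a gene in reach 2.34%. The runs began 56 bp from the summit at hsp-6, 75 bp at hsp-60 and 55 bp at dnj-12. In the promoter itself, from 250 bp upstream to 50 bp downstream of the 5′ end, 5 of the 10 members held a run of 3 or more units, namely hsp-1, hsp-70, hsp-90, hsp-110 and dnj-12, against 1.98% of the 19985 promoters of the same length. A pair was found in these 5 and in dnj-13, against 32.6% of promoters. At hsp-110, dnj-12 and dnj-13 these matches include letters already counted near the summit, so the promoter and summit counts overlap. The genes hsp-70 and hsp-90, without an IDR summit in the promoter window, were thus among those with runs at their 5′ ends. At hsp-90, which has an IDR summit in its first intron, 1 run ended 3 bp and another 73 bp upstream of the 5′ end. No binding of HSF-1 was measured in these samples, and a match says only that the letters are present.

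**Figure D2:**
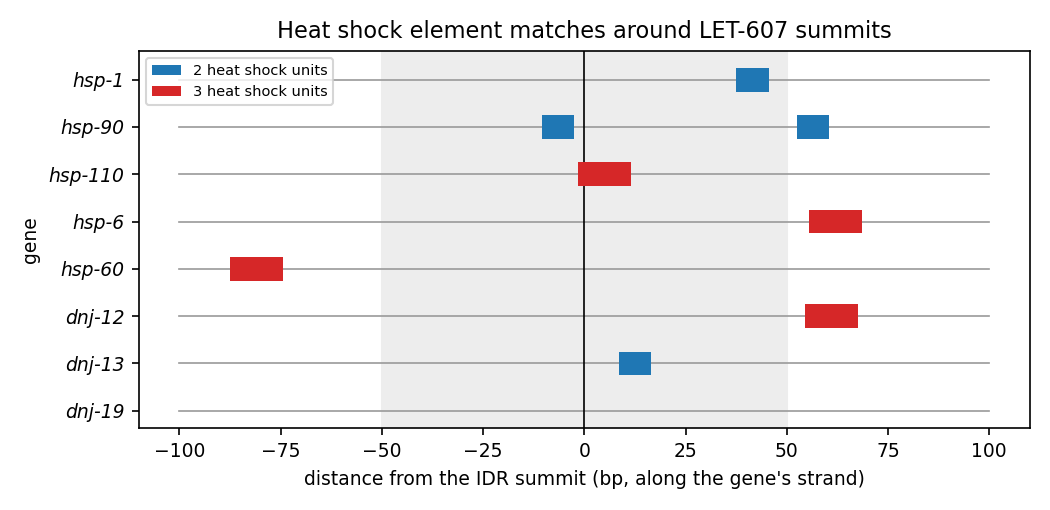
Heat shock element matches around the IDR summits. The x axis is the distance from the summit in bp along the gene's strand, the grey band marks 50 bp to each side, and bars show matches of 2 units (blue) or 3 units (red) at the 7 bound members and at the first-intron summit of hsp-90. The run at hsp-110 covers the summit, those at hsp-6, hsp-60 and dnj-12 lie outside the band, and dnj-19 has none.

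The CRE core TGACGT, the letters to which CREB-type bZIP factors bind, was absent within 100 bp of all 7 bound members' summits, on both strands. Within 50 bp it was present at 8.22% of all IDR summits, and within 100 bp at 13.0%, so that nothing is read from its absence at 7 summits. The related core GACGTG was found at dnj-19 only, centred 3.5 bp from the summit, against 7.04% of all IDR summits. The longer TGACGTGG was found at no member (1.9% of IDR summits), and the control letters TGCAGT, which are TGACGT written backwards, at none within 50 bp (6.58%). CCAAT lay within 50 bp at hsp-60 and dnj-19 (16.0% of IDR summits), and CCACG at dnj-12 (23.5%). CCAAT and CCACG are the parts of the ER stress element, and no bound member had both within 50 bp.

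Among the cytosolic Hsp70 and Hsp110 genes, hsp-110 and hsp-1 had strong and well reproduced promoter peaks. The gene hsp-110 (WBGene00016250; chromosome III, 8443910 to 8446909, ce11, minus strand) encodes the Hsp110-type exchange factor. Its peak (8447026 to 8447284) had pooled signal 347 at rank 200, signal 189 at rank 204 in replicate 1 and signal 153 at rank 215 in replicate 2. The summits lay 236, 247 and 235 bp upstream of the 5′ end in the same order. Among the 1550 bound genes, 11.5% had a stronger promoter peak than hsp-110. The same summit lay 208 bp upstream of rpn-3, a proteasome subunit gene that is transcribed away from hsp-110, with 444 bp between the 5′ ends.

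The gene hsp-1 (WBGene00002005; chromosome IV, 17278959 to 17281330, plus strand) encodes the constitutive cytosolic Hsp70. Its promoter peak (17278463 to 17278690) had pooled signal 322 at rank 222, signal 187 at rank 207 in replicate 1 and signal 135 at rank 256 in replicate 2. It was the only bound member whose summit lay in no other protein-coding gene's window, and the summit, 392 bp upstream, lay in no annotated gene. Of the bound genes, 12.8% had a stronger promoter peak. The heat shock element of hsp-1's own promoter, a run of 3 units ending 132 bp upstream of the 5′ end, lay well apart from that summit.

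The heat-inducible hsp-70 (WBGene00002026; chromosome I, 9320325 to 9322519, minus strand) had a weak peak only. In the pooled list its strongest promoter summit had signal 47.4 at rank 4925, outside the IDR list. In replicate 1 it had signal 23.4 at rank 7361 and in replicate 2 signal 26.0 at rank 5001, and the summits lay 114, 96 and 154 bp upstream in the pooled list and the 2 replicates. The replicate summits of this weak peak lay 58 bp apart. The gene lies inside the model of uggt-2 on the other strand, a gene of glycoprotein quality control in the ER, and the promoter summit lay in an intron of it. The nearest IDR summit was 5163 bp upstream of hsp-70, in the exon of a tRNA gene, with signal 105.

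The gene hsp-90 (WBGene00000915; chromosome V, 14684918 to 14688545, plus strand), which encodes cytosolic Hsp90, had its strong peak inside the gene. At its 5′ end the pooled list held signal 37.5 at rank 7703, with the summit 64 bp downstream. Replicate 1 had a summit 258 bp upstream with signal 25.5 at rank 6219 and another 69 bp downstream with signal 24.6, and replicate 2 had none in the window. The IDR peak (14685661 to 14685901) had its summit 863 bp downstream of the 5′ end, in an intron, with pooled signal 355 at rank 190. Its signal was 184 at rank 216 in replicate 1 and 170 at rank 189 in replicate 2, which places it above the promoter peaks of all 7 bound members in the pooled list. An IDR summit in the gene model more than 200 bp downstream of the 5′ end was found for 2.91% of all protein-coding genes, and among the members for hsp-90, hsp-1 and hsp-6.

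The intron summit of hsp-90 lay in front of other annotated starts. A shorter hsp-90 transcript begins at 14686160, and the summit lay 379 bp upstream of that start. It also lay 296 bp upstream of C47E8.4, a gene on the other strand that RefSeq annotates as a FAM50 homolog. The sequence printed above holds a heat shock pair whose nearer end is 3 bp from the summit, and another pair begins 53 bp from it. The long transcript's own start, with the 2 runs of heat shock units described above, is where the weak relaxed summits lay.

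Both mitochondrial chaperone genes were bound, at very different ranks. The gene hsp-60 (WBGene00002025; chromosome III, 1619742 to 1625803, plus strand) had a peak (1619012 to 1619272) with pooled signal 335 at rank 210, signal 178 at rank 224 in replicate 1 and signal 157 at rank 208 in replicate 2. The summit lay 610 bp upstream, which is the farthest of the bound members, and the window of 500 bp leaves it out. It lay 203 bp upstream of Y22D7AL.10 on the other strand, which RefSeq annotates as a mitochondrial 10 kDa heat shock protein, the partner that caps the Hsp60 chamber. The 5′ ends of these genes are 813 bp apart, so the peak sits between the genes of both parts of the chaperonin and closer to the smaller one.

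The gene hsp-6 (WBGene00002010; chromosome V, 4824124 to 4826760, minus strand) had the weakest IDR promoter peak of the members (4826911 to 4827334). Its pooled signal was 101 at rank 1619, and the replicates did not rank it alike, with signal 79.1 at rank 916 in replicate 1 and signal 28.1 at rank 4249 in replicate 2. The ratio of these ranks was 4.64. Over the 1535 bound genes with a summit of both replicates the median ratio was 1.4, and 1.89% of them had a ratio at least that large. Without replicate 1, that is, among the 2372 strongest peaks of replicate 2, hsp-6 was not bound. The summit lay 363 bp upstream of hsp-6, in exons of the noncoding genes C37H5.15 and C37H5.16, and 237 bp upstream of C37H5.5, which RefSeq annotates as a nucleolar complex protein homolog.

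**Figure D3:**
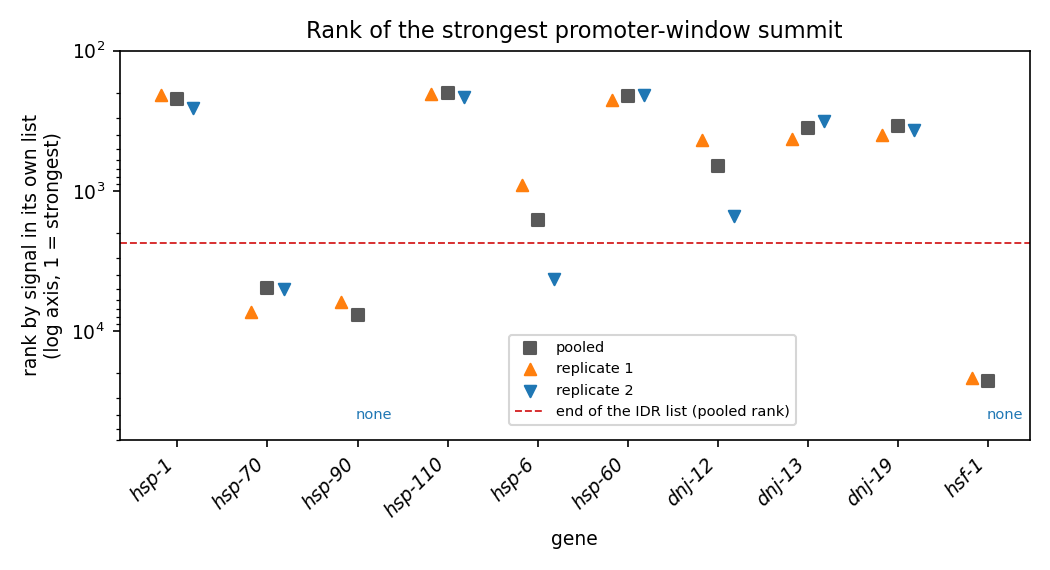
Rank of the strongest promoter-window summit of each gene in the pooled list (squares), replicate 1 (upward triangles) and replicate 2 (downward triangles). The y axis is the rank by signal within each list on a log scale with the strongest at the top, and the dashed line is the end of the IDR list at pooled rank 2372. The replicates lie close together at hsp-1, hsp-110, hsp-60, dnj-13 and dnj-19 and apart at hsp-6 and dnj-12, and replicate 2 has no summit at hsp-90 and hsf-1.

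All 3 cytosolic J-domain genes were bound. The gene dnj-19 (WBGene00001037; chromosome V, 5503033 to 5504857, minus strand), which encodes a DnaJ-type co-chaperone, had a peak (5505201 to 5505363) with pooled signal 249 at rank 342. Its signal was 129 at rank 399 in replicate 1 and 112 at rank 368 in replicate 2. The summit lay 441 bp upstream of dnj-19 but 45 bp downstream of the 5′ end of nhr-47, a nuclear hormone receptor gene on the other strand, in its annotated 5′ untranslated region. A further relaxed summit 642 bp upstream had signal 43.0 at rank 5913.

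The gene dnj-13 (WBGene00001031; chromosome II, 11545701 to 11547360, plus strand) encodes a J-domain protein that in C. elegans works with HSP-1 and HSP-110 in taking protein aggregates apart. Its peak (11545432 to 11545574) had pooled signal 244 at rank 358, signal 124 at rank 426 in replicate 1 and signal 121 at rank 317 in replicate 2. The summit lay 195 bp upstream. The gene lies inside the Ensembl model of dhgd-1, a mitochondrial dehydrogenase gene on the other strand, and the summit overlapped exons of the noncoding genes F54D5.18 and F54D5.22. The F-box gene F54D5.9, transcribed the other way, had the same summit 678 bp upstream.

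The gene dnj-12 (WBGene00001030; chromosome I, 14756904 to 14758790, plus strand), another DnaJ-type gene, had its summit nearest to the 5′ end of all bound members, 100 bp upstream. Its peak (14756592 to 14757015) had pooled signal 170 at rank 663, signal 121 at rank 436 in replicate 1 and signal 50.8 at rank 1506 in replicate 2. The rank ratio of 3.45 between the replicates was reached by 5.08% of the bound genes, although the replicate summits lay 1 bp apart. The gene on the other side, mtx-1, encodes a metaxin of the mitochondrial outer membrane, and the summit lay 392 bp upstream of it.

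The regulator hsf-1 (WBGene00002004; chromosome I, 11953507 to 11963085, minus strand) had the weakest signal of all members. Its strongest pooled summit, 157 bp upstream, had signal 20.6 at rank 22739, near the lowest signal of that list, 18.2. Replicate 1 had summits 689 and 190 bp upstream with signal 12.8 at rank 21580 and signal 12.3 at rank 22877, and replicate 2 had none in the window, its nearest summit being 2045 bp upstream. The nearest IDR summit was 32357 bp away, on the downstream side. By their promoter-window peaks, the members thus ran from ranks near 200 at hsp-110, hsp-60 and hsp-1 through dnj-19 and dnj-13. Then came dnj-12 and hsp-6, and the window peaks of hsp-70, hsp-90 and hsf-1 lay outside the IDR list. The IDR peak in the intron of hsp-90, at rank 190, is not part of this order. Between the replicates the order of hsp-110, hsp-60 and hsp-1 changed, as did that of dnj-19 and dnj-13. Neighbours within these groups are therefore not told apart.

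Most of the bound promoters were shared with a gene transcribed in the opposite direction. At 6 of the 7 bound members, all but hsp-1, the summit also lay in the window of a divergent protein-coding gene, as was the case for 42.9% of all 1550 bound genes. The summit lay nearer to the neighbour's 5′ end at hsp-110, hsp-6, hsp-60 and dnj-19 and nearer to the chaperone's at dnj-12 and dnj-13. Which gene of such a pair a summit belongs to cannot be told from peak positions. In C. elegans many transcripts are trans-spliced, so an annotated 5′ end can lie downstream of the site where transcription starts.

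IDR summits also lay along or just past the other end of several members. From 200 bp downstream of the 5′ end to 1500 bp beyond the 3′ end, 6 of the 10 members had an IDR summit, against 7.27% of all protein-coding genes. At hsp-6 a peak with pooled signal 139 at rank 963 lay in the 3′ exon, 30 bp before the gene's end, with signal 73.1 and 62.9 in replicates 1 and 2, so it was pooled above the promoter peak of that gene and ranked more alike (1071 and 1044). This summit also lay in the promoter window of the next gene, adss-1. At hsp-110 a peak with pooled signal 326 at rank 219 lay 108 bp past the 3′ end, and 195 bp upstream of ufbp-1, which RefSeq annotates as a DDRGK domain protein. The gene hsp-110 therefore had IDR peaks of similar rank on both sides.

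At hsp-1 an IDR summit with signal 94.2 at rank 1807 lay in the 3′ untranslated exon and another with signal 115 at rank 1298 lay 150 bp past the end, in nra-1. The first of these had no summit of replicate 1 within 100 bp and signal 22.5 in replicate 2. At hsp-90 a peak with signal 139 at rank 962 lay 54 bp past the 3′ end and 17 bp upstream of C47E8.11. At dnj-12 a peak with signal 234 at rank 388 lay 716 bp past the end, between rps-26 and tmem-107. At dnj-19 a peak with signal 97.4 at rank 1713 lay 190 bp past the end in a coding exon of T05C3.2. The replicates did not rank this dnj-19 peak alike, with rank 1438 in replicate 1 and 8488 in replicate 2. The summits past hsp-110, hsp-90 and dnj-12 and that in the 3′ exon of hsp-6 thus lay in another gene's promoter window, and those by hsp-1 and dnj-19 in none.

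Some genes in each of the other chaperone lists were bound. Of 86 further genes found in the annotation, in 8 lists, 26 (30.2%) had an IDR summit in the window, at 25 distinct summits. The share of all protein-coding genes, 7.76%, is the background for this count and for each list below. The lists were drawn up with earlier results of these data known. Of the 10 co-chaperones of Hsp70 and Hsp90, 4 were bound. They were bag-1, an Hsp70 exchange factor gene, with signal 561 at rank 104, which lies above every member, daf-41 (the p23 co-chaperone) with 245, ahsa-1 (the activator of the Hsp90 ATPase) with 187 and unc-23, a BAG domain gene, with 180. The Hsp70-Hsp90 adaptor sti-1 had a relaxed peak only, at rank 3916, and cdc-37 had none.

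In a list of heat-inducible Hsp70 genes and small heat shock genes, not all of which are known to respond to heat, 3 of 16 were bound. The Hsp70 genes F44E5.4 and F44E5.5, a nearly identical divergent pair whose reads may not be separable, shared a summit with signal 270 at rank 298. The third was sip-1 with signal 229, its summit lying 245 bp upstream of sip-1 but 12 bp upstream of sly-1. Under the rule of the nearest 5′ end only, 1 gene of this list remained bound. The small heat shock genes hsp-16.2 and hsp-16.41 shared a relaxed summit at rank 4679, and hsp-16.1, hsp-16.11, hsp-16.48 and hsp-16.49 had none. Of the CCT chaperonin, which folds actin and tubulin, 3 of 8 subunit genes were bound, cct-8 (signal 411), cct-1 (231) and cct-7 (111). These summits lay nearer to the 5′ ends of the neighbours Y55F3AR.2, mig-5 and T10B5.4 in turn. With each summit given only to its nearest 5′ end, no CCT gene remained bound. Of prefoldin, which hands clients to CCT, 3 of 6 were bound, pfd-1 (197), pfd-4 (124) and pfd-6 (93.2).

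Of the other J-domain genes, 2 of 19 (10.5%) were bound, dnj-9 (signal 215) and dnj-14 (202), a share near the 7.76% of all protein-coding genes. The mitochondrial genes beyond hsp-6 and hsp-60 had 4 of 14 bound among co-chaperones, proteases and stress factors and 4 of 10 in protein import. In the first list these were Y22D7AL.10 at the summit of hsp-60, C34C12.8 (the GrpE partner of mitochondrial Hsp70) with signal 187, ymel-1 with 108 and ubl-5 with 96.4. In the second they were tomm-20 (186), ddp-1 (156), timm-17B.1 (86.9) and tin-9.1 (78.8). The gene of the mitochondrial stress factor atfs-1 had a relaxed peak only, at rank 3247. The ER counterparts of HSP-1 and HSP-90 were all bound, hsp-3 at rank 8 with signal 5058, enpl-1 at rank 11 with 4456 and hsp-4 at rank 725 with 164, so that hsp-3 and enpl-1 stood above every cytosolic and mitochondrial member, and hsp-4 below all bound members but hsp-6.

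**Figure D4:**
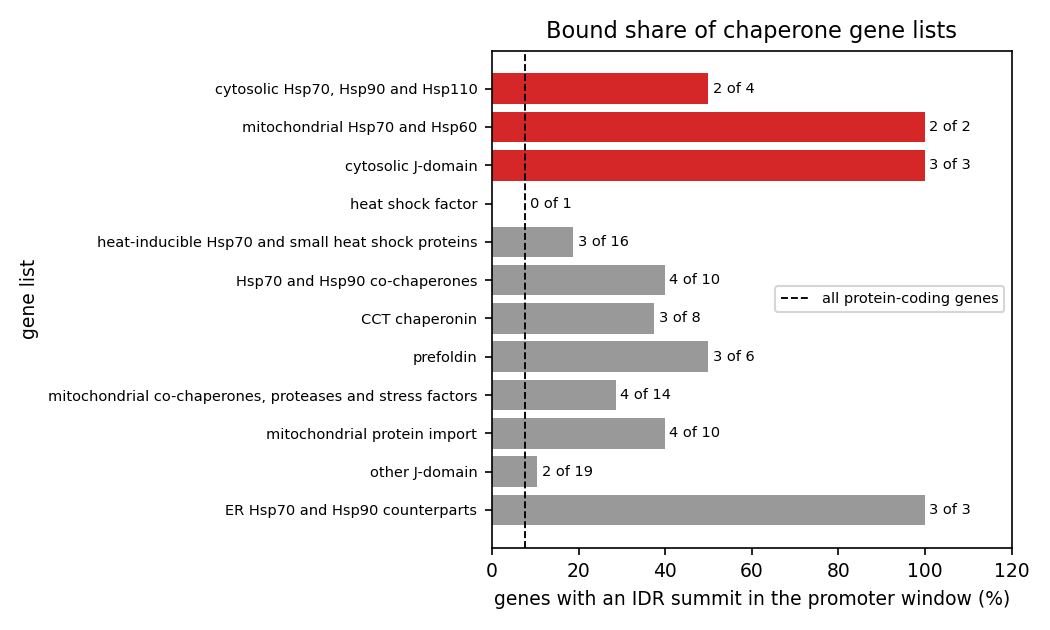
Share of genes with an IDR summit in the promoter window, in percent, for the members by role (red) and other chaperone lists (grey), with counts beside the bars. The dashed line is the share of all protein-coding genes, 7.76%. Lists hold between 1 and 19 genes, and some share a summit, so the bars are counts of genes and not independent sites.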

How the data were processed

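Binding was read from 4 peak lists on build ce11 (the IDR list, the pooled relaxed list and 1 relaxed list for each replicate). Per the deposited descriptions, each relaxed list was derived from the alignments of 1 or both replicates together with 1 further file, and the IDR list from the 3 relaxed lists. Neither the aligner nor the software that found peaks is named in the labels or headers. Ranks use the authors' deposited signal, because 2252 IDR peaks share the highest deposited −log10 q-value. The ce10 lists were not used, since no annotation of that build was at hand.

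Summits were assigned to the 5′ ends of Ensembl release 115 gene models, with every gene in reach counted. Coordinates are 1-based. Genes that share a symbol were told apart by RefSeq symbols. Of 88 listed other chaperone genes, 86 were matched. One gene, stip-1, was removed after values were seen because its annotation names no co-chaperone. Members, lists and motifs were chosen with earlier results of these data known. All 10 members, all genes sharing a bound member's promoter summit and up to 4 bound genes of each list with the highest signal are named; other genes and summits were added after their values were seen. The design has 1 group, so no test was made. Summit assignment and motif search were tested on simulated data. Alternatives were other windows, nearest 5′ end only, all transcript starts, the stronger IDR peaks and each replicate left out. Python 3.11.15, numpy 2.4.6, pandas 2.3.3 and matplotlib 3.10.9 were used.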

Additional observations from a re-analysis of the deposited data

How the results depend on the processing

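The count of 7 bound members became 3 when each summit went only to the nearest 5′ end, and stayed between 6 and 8 under the other settings. The share of all genes, 7.76%, became 5.95% for the nearest 5′ end, 6.24% and 10.1% for windows of 500 and 2000 bp, and 8.47% for all transcript starts. Without replicate 1 the count of bound members was 6 and without replicate 2 it was 7, hsp-6 being the member that changed. The nearest 5′ end also took the count of members with relaxed summits of both replicates from 8 to 4 and that of other bound chaperone genes from 26 to 17; leaving out a replicate gave 26 and 27. The share of all genes was 4.25% with the stronger 1186 IDR peaks, and 7.44% and 7.79% without replicates 1 and 2 in turn. A heat shock pair was present at 3 of 7 summits within 50 bp (7.21% of all IDR summits), 2 within 25 bp (3.54%) and 6 within 100 bp (16.9%). No paired analysis was possible because there is 1 group. Depth is unknown, so a missing peak does not show that a site is unbound.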

Other observations

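Heat shock element letters also lay near other chaperone summits. Leaving out the summit shared with hsp-60, the other bound chaperone genes had 24 distinct summits, of which 11 held a pair within 100 bp, against 16.9% of all IDR summits, and 4 held a run of 3 units, against 1.9%. The 4 were the summits of F44E5.4 with F44E5.5, of ahsa-1, of bag-1 and of ddp-1. Within 50 bp, 6 of the 24 held a pair, against 7.21% of all IDR summits, and 2 held a run, against 0.843%. The 2 were the summits of F44E5.4 with F44E5.5 and of ahsa-1. These lists were drawn up with earlier results known, and no test was made.

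The base composition at the summits varied among the bound members, from 40.6% G and C within 50 bp at dnj-12 to 58.4% at hsp-60, around a median of 44.6% over all IDR summits. The nearest tRNA gene was 14359 bp or more from each bound member's summit and 3751 bp from the intron summit of hsp-90.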
